A study of Takifugu obscurus with 9 samples.

Results

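The comparison described here set whole kidney of obscure puffer (Takifugu obscurus) sampled 12 h after poly(I:C) against kidney sampled at 0 h, with 3 libraries in each group. All fish were 3 months old. The 0 h libraries were labelled as controls, and neither a strain nor a route of poly(I:C) is stated. Nothing in the labels tells whether the 0 h fish were injected or whether a library is 1 fish or a pool, and no control was taken at 12 h. Treatment, handling and clock time therefore cannot be told apart, and a p-value here reflects only how these libraries spread, which may be technical. These 6 of the 9 libraries in the series make up the comparison, and the 3 libraries from 48 h enter the fit for its estimate of the spread and are given beside the 12 h values. Features, the gene clusters of a transcriptome assembled without a genome, were kept at 1 TPM (transcript abundance scaled to a fixed total per library) or more in at least 3 libraries, which left 45473 of 46444.

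Poly(I:C) is a synthetic double-stranded RNA that cells read as a sign of viral infection through Toll-like and RIG-I-like receptors, which switch on interferon and inflammatory genes. The kidney of a bony fish filters blood and reclaims solutes in its tubules, and it is also the main blood-forming organ, with red cells, phagocytes and lymphocytes among the nephrons. Its RNA is a mixture of all of these, so fewer cells of a type and less RNA per cell cannot be told apart.

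The libraries did not stand at even distances. Distances were taken over features with a single assembled transcript that reached a floor of estimated reads. Control libraries 1 and 2 differed by a median squared difference of 1.69 times that expected from counting reads. For either of them with control library 3 it was 16.01 and 14.35 times. The 12 h libraries 1 and 2 were 14.93 times counting noise apart, and 12 h library 3 lay between them, at 1.89 times counting noise from a weighted mean of the pair. Among 1124 features that differed at least 2-fold between 12 h libraries 1 and 2, library 3 was between them in 98.0%, at a median place of 0.52 of the way from library 1 to library 2. Many of the calls given below were lost without 12 h library 3 or with control libraries 1 and 2 averaged. Depth, estimated from the size of the steps between low values, was about 25000000 to 31300000 assigned reads a library. A single read then counted for 0.59 to 0.78 TPM in a 250-nucleotide feature.

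**Figure D1:**
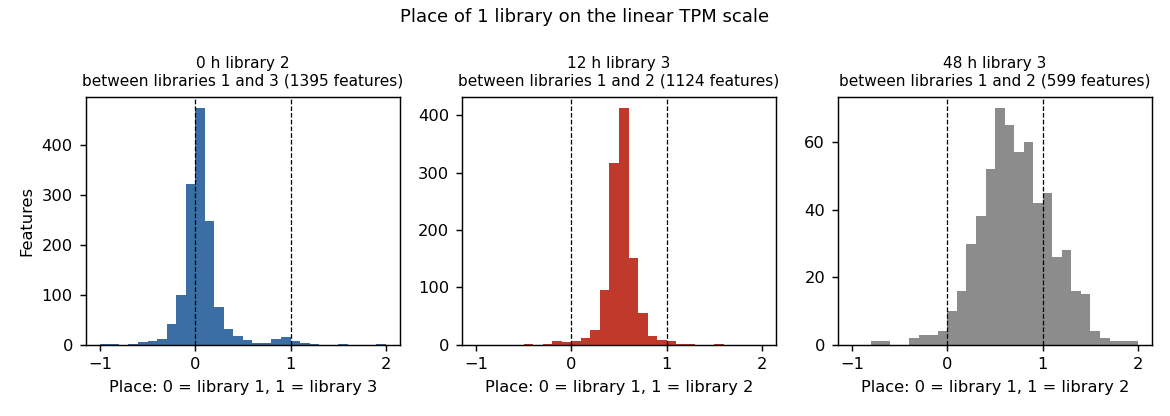
Where 1 library lies between its fellows (x axis, linear TPM, 0 and 1 being the other libraries) for features that differ at least 2-fold between those, as counts of features (y axis). The 12 h library 3 is centred near the middle with a median of 0.52, control library 2 sits on library 1 with a median of 0.04, and 48 h library 3 is spread widely with a median of 0.71.

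At 12 h, 269 features were higher and 378 lower than at 0 h in limma's moderated test on log2(TPM + 1), at a Benjamini-Hochberg adjusted p under 0.05. These are 0.592% and 0.831% of the features tested, or 1.42% together, and 7231 (15.9%) had an unadjusted p under 0.05. The libraries of the groups did not overlap for any called feature, which held for 9524 features in all (20.9%). The median log2 fold change was 1.64 among the higher and -1.72 among the lower features, and 73 and 119 of them had no protein match. The higher features summed to between 10106 and 11594 TPM in the controls, to between 31554 and 33735 TPM at 12 h and to between 12506 and 15636 TPM at 48 h. The lower features summed to between 22945 and 31627 TPM in the controls and to between 7527 and 8999 TPM at 12 h. At 48 h they summed to between 16188 and 19257 TPM. Without 12 h library 3 the counts were 22 higher and 30 lower, and with control libraries 1 and 2 averaged they were 29 and 31. Without control library 1 they were 23 and 27, without control library 2 they were 28 and 27, and without 12 h library 2 they were 50 and 53.

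Of the called features, 22 higher and 19 lower ones passed in every one of 10 further fits, 9 that each left out 1 library and 1 that averaged control libraries 1 and 2. Of these, 13 and 14 had an informative fish protein name, and most are described first. With both steps together, averaging the control pair and leaving out 12 h library 3, 4 features were higher and 2 lower.

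**Figure D2:**
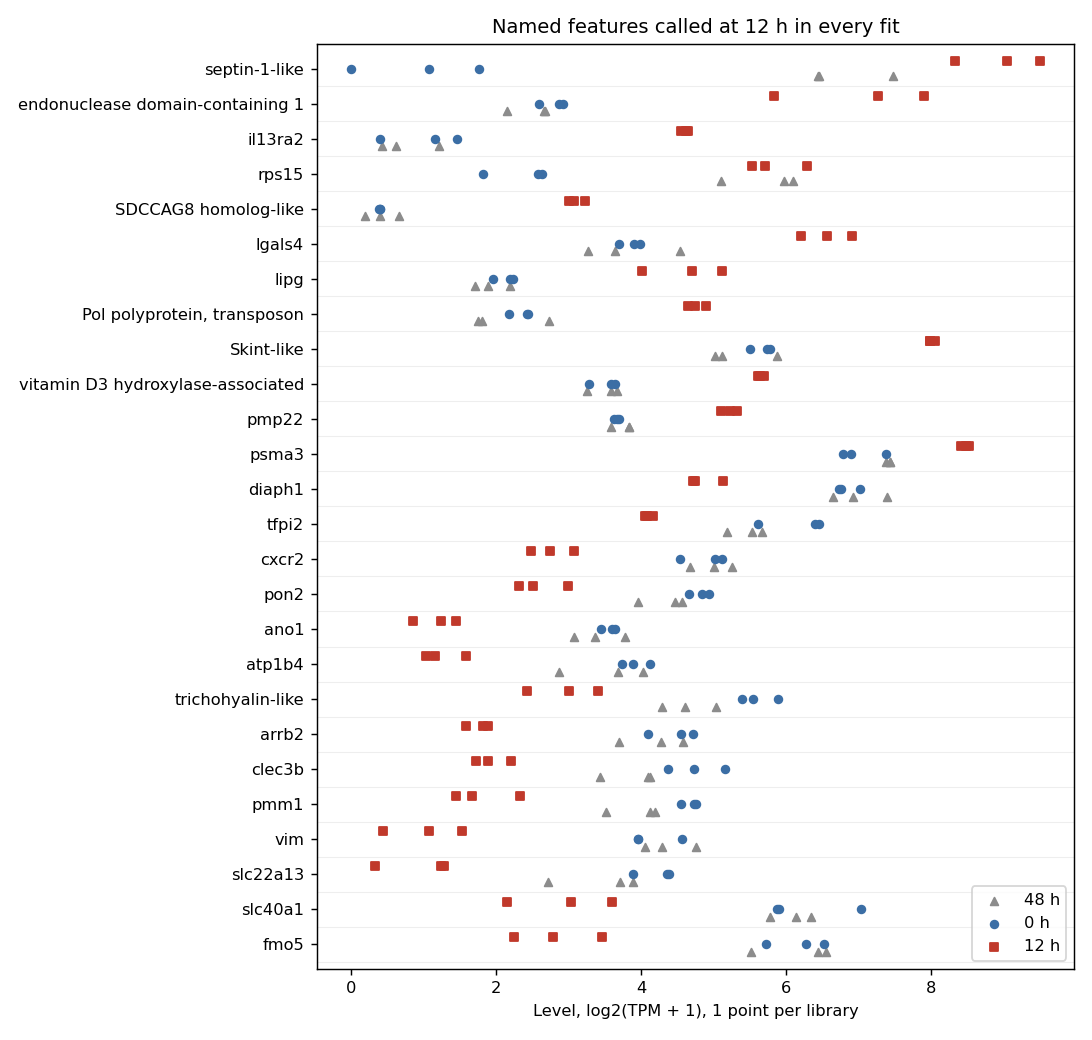
Level of 26 named features that passed in all 10 further fits, as log2(TPM + 1) (x axis), with 1 point for each library at 0 h (circles), 12 h (squares) and 48 h (triangles). The 12 h squares do not overlap the 0 h circles in any row, and most 48 h triangles lie near the circles. For rps15 the 48 h points lie with the 12 h points, and for septin-1 they lie between the groups.

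The largest fold change upward was in a short feature of 429 nucleotides that matches septin-1, a GTPase that assembles into cytoskeletal filaments. Its controls stood at 0, 1.11 and 2.40 TPM, its 12 h libraries at 320, 725 and 527 TPM, and its 48 h libraries at 85.6, 86.9 and 177 TPM. The lowest 12 h library was above every control by more than 100 TPM, the log2 fold change was 8.01 with a limma adjusted p of 3.08e-04, and the feature passed with both steps together. An endonuclease domain-containing 1 feature was at 6.26, 6.61 and 5.02 TPM in the controls and at 56.2, 239 and 153 TPM at 12 h, a log2 fold change of 4.21 (adjusted p 0.00518). Its 48 h mean was 4.70 TPM, below every control.

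Several of these rises belong to secreted or surface proteins. Interleukin-13 receptor alpha-2 (il13ra2), which in mammals binds interleukin 13 without passing on its main signal, was at 1.76, 1.23 and 0.32 TPM in the controls and at 22.4, 24.0 and 23.5 TPM at 12 h. Its 12 h libraries lay within 2 TPM of each other, and the 48 h mean was 0.733 TPM. Galectin-4 (lgals4), a lectin that binds beta-galactoside sugars, stood at 14.8, 12.0 and 13.9 TPM and then at 119, 73.0 and 93.2 TPM, with a log2 fold change of 2.70, an adjusted p of 0.00686 and a 48 h mean of 14.1 TPM. A feature like mouse Skint proteins, which are immunoglobulin-type proteins of the butyrophilin family, stood at 44.4, 53.6 and 52.4 TPM and then at 253, 252 and 264 TPM. Its log2 fold change was 2.34 (adjusted p 0.00288), or 1.49 summed over both features so described. Endothelial lipase (lipg), which cleaves lipoprotein phospholipids, stood at 3.58, 3.68 and 2.87 TPM and then at 33.7, 15.2 and 24.9 TPM, a log2 fold change of 2.49 (adjusted p 0.00686). In all 4 of these the 48 h mean was within or below the controls' range.

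Other rises also passed in every fit. A feature like vitamin D3 hydroxylase-associated protein, a member of the amidase family, stood at 10.97, 11.4 and 8.69 TPM and then at 47.8, 50.8 and 49.0 TPM. Its log2 fold change was 2.15 with an adjusted p of 0.00132, with all 12 h libraries within 3 TPM of each other. It comes from the same assembly component as a feature for GTPase IMAP family member 7, whose 12 h libraries were further apart, at 661, 1856 and 1256 TPM. Whether reads were shared between these linked sequences was not tested. A peripheral myelin protein 22-like feature (pmp22), a membrane protein of myelin and epithelia, stood at 11.7, 12.0 and 11.3 TPM and then at 33.4, 39.0 and 36.4 TPM, a log2 fold change of 1.56 (adjusted p 0.00288). A homolog of SDCCAG8, a centrosomal protein, went from 0.30 to 0.31 TPM in the controls to between 7.02 and 8.38 TPM. A Pol polyprotein feature of a retrotransposon went from between 3.52 and 4.44 TPM to between 24.1 and 28.7 TPM, with log2 fold changes of 2.41 for the feature and 1.74 for both features of that description. A 478-nucleotide feature for the ribosomal protein rps15 rose by 3.50 log2 units, but summed over both features so described the change was -0.04.

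Among the genes that fell in every fit were several with known roles in transport and detoxification. Ferroportin (slc40a1), which exports iron from cells, stood at 58.8, 57.6 and 129 TPM in the controls and at 11.1, 3.44 and 7.21 TPM at 12 h. Its log2 fold change was -3.34 (adjusted p 0.00883), and at 48 h it stood at 69.5, 80.1 and 54.0 TPM. A flavin monooxygenase (fmo5) was at 90.5, 76.5 and 51.7 TPM and then at 9.98, 3.73 and 5.86 TPM, a log2 fold change of -3.35, with a 48 h mean of 74.5 TPM. The paraoxonase-like pon2, a lactonase with antioxidant activity in mammals, was at 27.7, 29.7 and 24.4 TPM and then at 6.92, 3.99 and 4.67 TPM, a change of -2.21 (adjusted p 0.00506). One feature for the organic anion transporter slc22a13 was at 19.8, 19.5 and 13.8 TPM and then at 1.43, 0.26 and 1.36 TPM, while the 17 features of that description had a summed change of -1.34 that did not pass (adjusted p 0.105). The chloride channel anoctamin-1 (ano1) likewise fell by 2.39 log2 units as 1 feature and had a summed change of -0.77 over 4 features (adjusted p 0.236). Phosphomannomutase 1 (pmm1), which makes the mannose 1-phosphate used in glycosylation, was at 25.9, 22.5 and 25.5 TPM and then at 4.02, 1.72 and 2.17 TPM, with an adjusted p of 0.00288.

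A chemokine receptor and an arrestin were also among these falls, and a link between them was not tested. The receptor cxcr2, which guides neutrophils in mammals and zebrafish, stood at 33.7, 31.4 and 22.2 TPM in the controls, at 7.44, 4.60 and 5.66 TPM at 12 h, and back at 24.6, 37.1 and 31.2 TPM at 48 h. Its log2 fold change was -2.12 with an adjusted p of 0.00585, and the 12 h libraries lay under every control and every 48 h library. The beta-arrestin arrb2, which binds activated receptors of the class to which cxcr2 belongs and takes them off the cell surface, stood at 25.4, 22.4 and 16.2 TPM and then at 2.69, 2.0 and 2.53 TPM, a change of -2.69 (adjusted p 0.00308). None of the other 9 neutrophil markers measured passed. The list of 10 summed to between 1981 and 2703 TPM in the controls and to between 2552 and 3962 TPM at 12 h, so the groups overlapped. The part of neutrophil content in the fall of cxcr2 was not tested.

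Vimentin, a formin and a few other features fell in each of the 10 further fits as well. The intermediate filament gene vim stood at 14.6, 14.5 and 22.7 TPM in the controls and at 1.87, 0.36 and 1.11 TPM at 12 h, a change of -3.14 (adjusted p 0.00430), and had a 48 h mean of 20.1 TPM. The formin diaph1, which starts and lengthens actin filaments, stood at 105, 107 and 129 TPM and then at 34.1, 25.2 and 25.8 TPM, a change of -1.97 (adjusted p 0.00542), with a 48 h mean of 129.0 TPM. A sodium pump beta subunit gene, atp1b4, fell by 2.66 log2 units and a trichohyalin-like feature by the same amount, with a summed change of -1.05 over the 13 features of that description (adjusted p 0.0184). Of 55 genes on the list for actin cytoskeleton and adhesion, 1 was called, the myosin light chain myl9, which fell by 1.16 log2 units with an adjusted p of 0.0405, against 141 of 10963 symbols called lower in all. The call of myl9 was lost without 12 h library 3 (adjusted p 0.160), with control libraries 1 and 2 averaged (0.148) and without control library 3 (0.0562).

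Genes with roles around plasmin, the enzyme that dissolves clots, were among the falls. Tissue factor pathway inhibitor 2 (tfpi2), which inhibits plasmin and other trypsin-like proteases in mammals, stood at 86.4, 83.5 and 47.7 TPM and then at 15.5, 16.9 and 15.96 TPM. It fell by 2.05 log2 units (adjusted p 0.00686), and the 12 h libraries lay within 2 TPM of each other and under every control. Tetranectin (clec3b), a plasminogen-binding lectin, stood at 19.6, 25.4 and 34.6 TPM and then at 2.29, 2.70 and 3.62 TPM, a change of -2.81 (adjusted p 0.00308). Both passed in every further fit. A feature described as a tissue-type plasminogen activator was at 12.6, 13.1 and 11.9 TPM and then at 7.12, 7.44 and 7.05 TPM but did not pass (plau, log2 fold change -0.72, adjusted p 0.0534). Of the 19 measured genes on the list for coagulation and fibrinolysis, 1 was called higher and 1, tfpi2, lower, and the list's median was -0.08.

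The gene lists below were matched by symbol, and each is read against 10963 symbols, of which 103 were higher (0.94%) and 141 lower (1.29%) with a median log2 fold change of -0.0058.

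**Figure D3:**
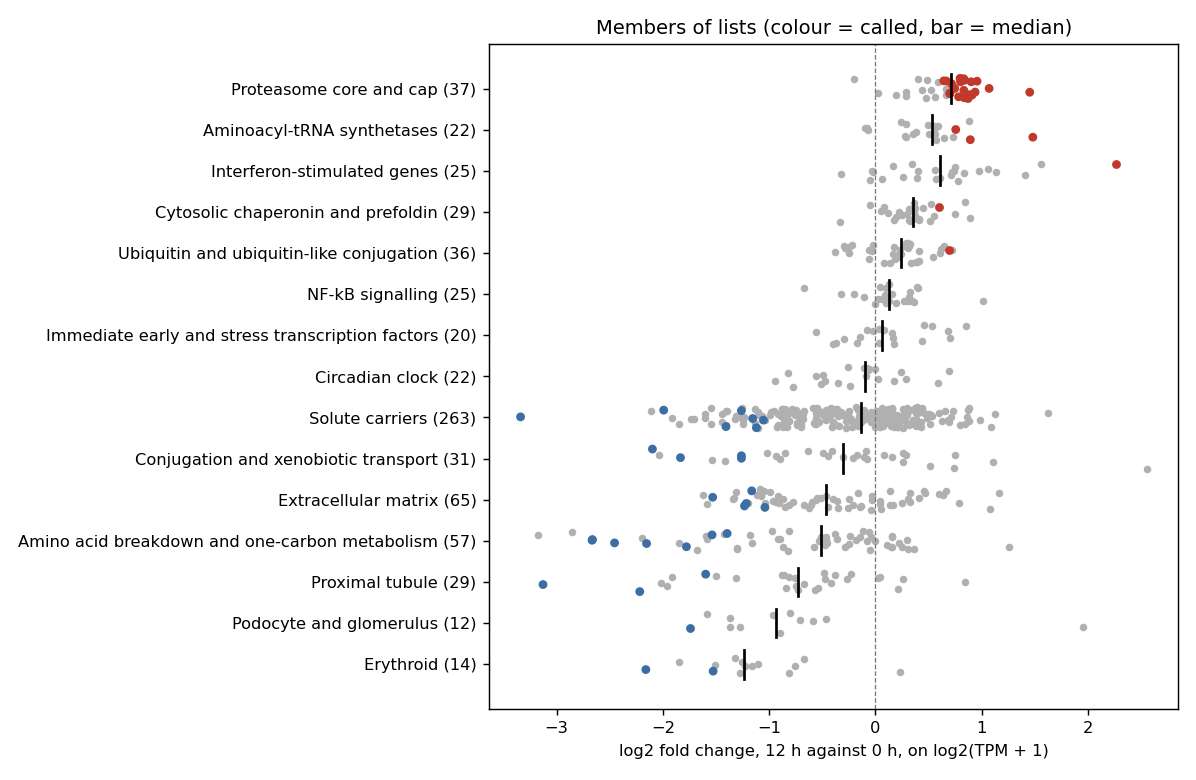
Log2 fold change from 0 h to 12 h on the log2(TPM + 1) scale (x axis) for each measured member of 15 gene and marker lists (rows, with the number measured). Red points were called higher and blue points lower, grey points did not pass, and black bars mark medians. The proteasome row has 23 red points and a median of 0.72, and the row of amino acid breakdown has 7 blue points and a median of -0.51.

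The proteasome, the barrel-shaped complex that degrades proteins tagged with ubiquitin, had the most called members of the lists described here. Of 37 core, cap and assembly genes measured, 23 rose and 0 fell. They summed to between 3410 and 3652 TPM in the controls, to between 5846 and 6167 TPM at 12 h and to between 3984 and 4446 TPM at 48 h. By part, 6 of 7 genes of the alpha ring passed, 5 of 7 of the beta ring and 3 of 6 of the ATPase base. Of genes with psmd symbols 5 of 12 passed, and of assembly chaperones with other symbols 4 of 5. The psmd group holds the non-ATPase cap and also the assembly chaperones psmd5, psmd9 and psmd10, which did not pass. The medians of these groups ran from 0.61 for the psmd group to 0.84 for both rings. The alpha ring gene psma3 stood at 110, 118 and 165 TPM in the controls and at 339, 369 and 355 TPM at 12 h, a change of 1.45 (adjusted p 0.00682) that passed in every further fit. The maturation protein pomp, which helps the rings assemble, stood at 193, 199 and 236 TPM and then at 388, 398 and 381 TPM, a change of 0.90 (adjusted p 0.0213). Among the members that did not pass were psmb6, which carries 1 of the cleaving activities, with a change of 0.29 (adjusted p 0.323), and psmd10, with 0.025. The number of members that passed was 25 without control library 3, 1 without 12 h library 3 and 2 with control libraries 1 and 2 averaged.

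Around the proteasome, few genes of ubiquitin handling and protein folding passed. Of 36 genes of ubiquitin conjugation and removal, 1 was called, the proteasome-bound deubiquitinase usp14, at 36.3, 38.6 and 36.5 TPM in the controls and at 56.5, 65.8 and 59.7 TPM at 12 h (change 0.69, adjusted p 0.0397). Polyubiquitin-B, which encodes ubiquitin itself and had the largest gain in TPM of all named features, stood at 8155, 7872 and 6263 TPM and then at 10332, 13667 and 11988 TPM. Its groups did not overlap, but its change of 0.69 did not pass (adjusted p 0.0737). Sequestosome-1 (sqstm1), which carries ubiquitin-tagged cargo to autophagosomes, rose from 134, 144 and 143 TPM to 246, 225 and 226 TPM (adjusted p 0.0253) and was the 1 called among 42 autophagy genes and among 36 genes of the glutathione and antioxidant list, which also holds it. Of 29 genes of the cytosolic chaperonin and its partners, 27 had a change above 0 and 1 passed, the chaperonin subunit cct6a, at 132, 130 and 130 TPM and then at 215, 188 and 194 TPM (adjusted p 0.0437). That list's median was 0.36. None of usp14, sqstm1 and cct6a passed without 12 h library 3 or with the control pair averaged. The call of cct6a held in 0 of the 10 further fits.

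Aminoacyl-tRNA synthetases, the enzymes that load amino acids onto tRNAs, were the other list with several called rises. Of 22 measured, 3 rose and 0 fell, with a median of 0.53. The arginine enzyme rars1 stood at 115, 125 and 84.8 TPM in the controls and at 287, 327 and 289 TPM at 12 h, a change of 1.48 (adjusted p 0.0151), and at 91.9, 75.5 and 121 TPM at 48 h. The cysteine enzyme cars1 rose by 0.89 and aimp1, a scaffold of the multi-synthetase complex, by 0.76 (adjusted p 0.0399 and 0.0360). The tyrosine enzyme yars1 was far more abundant than the others at 3818, 3969 and 3048 TPM in the controls, and at 12 h it stood at 5420, 8070 and 6598 TPM. Its groups did not overlap, and its change of 0.88 did not pass (adjusted p 0.114). Without 12 h library 3, or with the control pair averaged, 0 members passed, and without control library 3, 5 did. Other parts of gene expression had medians above 0 and 0 calls in limma's test. For translation initiation and elongation the median was 0.16 over 43 genes, with 13 higher and 1 lower at an unadjusted p under 0.05. For the spliceosome it was 0.21 over 52 (13 higher unadjusted), for nuclear transport 0.23 over 51 (10 higher) and for the mitochondrial ribosome 0.21 over 75 (11 higher), each with 0 lower at that level. The spliceosome and mitochondrial ribosome lists each had 1 call without control library 3.

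Genes of amino acid breakdown were lower. Of 57 measured, 0 rose and 7 fell, with a median of -0.51. In tyrosine breakdown, fumarylacetoacetase (fah) stood at 55.9, 50.8 and 31.7 TPM in the controls and at 10.6, 2.72 and 7.81 TPM at 12 h, a change of -2.66 (adjusted p 0.0274). The enzyme that precedes it by 2 steps, homogentisate dioxygenase (hgd), stood at 45.4, 46.3 and 17.3 TPM and then at 8.6, 2.76 and 5.75 TPM (change -2.45, adjusted p 0.0362). In histidine breakdown, histidine ammonia-lyase (hal) fell by 1.54 and ftcd, which passes a one-carbon unit to folate, by 2.15. In the breakdown of proline and hydroxyproline, prodh2, which oxidises hydroxyproline in mammals, fell by 1.78. The gene aldh4a1 fell by 1.39, from 85.6, 77.6 and 61.3 TPM to 29.4, 27.6 and 25.8 TPM (adjusted p 0.0147). Kynureninase (kynu), on the route from tryptophan to nicotinamide, went from 16.03, 15.6 and 7.18 TPM to 0.73, 1.5 and 1.09 TPM. For all 7, as for every called feature, the controls and the 12 h libraries did not overlap, and control library 3 was the lowest control. The number that passed was 13 without control library 3 and 0 without 12 h library 3 or with the control pair averaged.

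Enzymes that process foreign compounds and waste also fell. Of 31 genes of conjugation and xenobiotic transport, 0 rose and 4 fell, with a median of -0.30. The sulfotransferase sult1st3, which adds sulfate to hormones and drugs, stood at 524, 490 and 363 TPM in the controls and at 161, 97.1 and 130 TPM at 12 h (change -1.83, adjusted p 0.0213). The glutathione transferase gstm3 stood at 333, 328 and 336 TPM and then at 181, 103 and 142 TPM (change -1.26, adjusted p 0.0377), the glucuronosyltransferase ugt2a2 fell by 2.10 as 1 feature and had a summed change of -1.80 over 2 features that did not pass (adjusted p 0.0694), and the drug and proton exchanger slc47a1 fell by 1.26. Of 29 cytochrome P450 genes, cyp2k1 passed, at 268, 246 and 137 TPM and then at 56.8, 45.0 and 59.4 TPM (adjusted p 0.0202). Xanthine dehydrogenase (xdh), which makes urate in purine breakdown, stood at 27.8, 25.3 and 16.3 TPM and then at 2.90, 2.15 and 2.24 TPM. It fell by 2.79 log2 units (adjusted p 0.0189) and was the 1 called among 43 genes of nucleotide synthesis and salvage, and its 48 h libraries were spread from 3.81 to 16.5 TPM. None of these enzymes and transporters passed without 12 h library 3 or with the control pair averaged.

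Of 263 solute carriers, 0 rose and 7 fell, with a median of -0.14. Apart from slc40a1 and slc47a1 they were slc6a18, a neutral amino acid transporter of the tubule in mammals, the betaine transporter slc6a12, the glucose transporter slc2a1, slc46a2 and a feature described as the zinc transporter ZIP8 (symbol slc39a14). The gene slc6a18 stood at 63.6, 56.4 and 44.4 TPM and then at 14.7, 10.8 and 13.6 TPM (change -1.99, adjusted p 0.0151). One feature of slc2a1 fell by 1.12 log2 units, but the sum of the 3 features of its description had a change of 0.15. Only slc40a1 among the 7 passed without 12 h library 3 or with the control pair averaged.

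Most markers of the nephron were lower in the same libraries as these metabolic genes. Of 29 markers of the proximal tubule, where amino acids are reclaimed and drugs secreted, 24 had a change below 0 and 3 fell: the brush border peptidase anpep, amnionless (amn), a partner of the protein uptake receptor cubilin, and the water channel aqp1. Amnionless stood at 17.6, 16.7 and 9.22 TPM and then at 2.13, 2.17 and 2.37 TPM (change -2.22, adjusted p 0.00954), and anpep at 76.1, 68.5 and 20.7 TPM and then at 7.14, 2.44 and 5.23 TPM. The list summed to between 1215 and 2135 TPM in the controls and to between 983 and 1269 TPM at 12 h, so the groups overlapped, with control library 3 the lowest control, and its median change was -0.73. The number of its members that passed was 9 without control library 3 and 0 without 12 h library 3 or with the control pair averaged. Of 12 podocyte markers, 11 had a change below 0 and podxl, a surface protein of the filtration barrier, fell from 44.6, 37.6 and 39.0 TPM to 14.7, 8.93 and 11.04 TPM (adjusted p 0.0341). That list summed to between 203 and 247 TPM in the controls, to between 93.8 and 110 TPM at 12 h and to between 140 and 251 TPM at 48 h, and its median was -0.93. The call of podxl was lost without 12 h library 3 (adjusted p 0.132), with the control pair averaged (0.118) and without control library 3 (0.0510). The marker that went the other way, kirrel1, stood at 2.16, 1.19 and 4.39 TPM and then at 8.0, 16.7 and 12.5 TPM. Its change of 1.95 did not pass (adjusted p 0.0694), but it was called higher without control library 3 (0.0443). Summed over the 5 features of its description the change was 1.3 and passed (adjusted p 0.0289). The 7 markers of the distal tubule and collecting duct had 0 calls in limma's test, 2 lower at an unadjusted p under 0.05, and a median of -0.50. The part of nephron content in the lower metabolic genes was not tested.

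**Figure D4:**
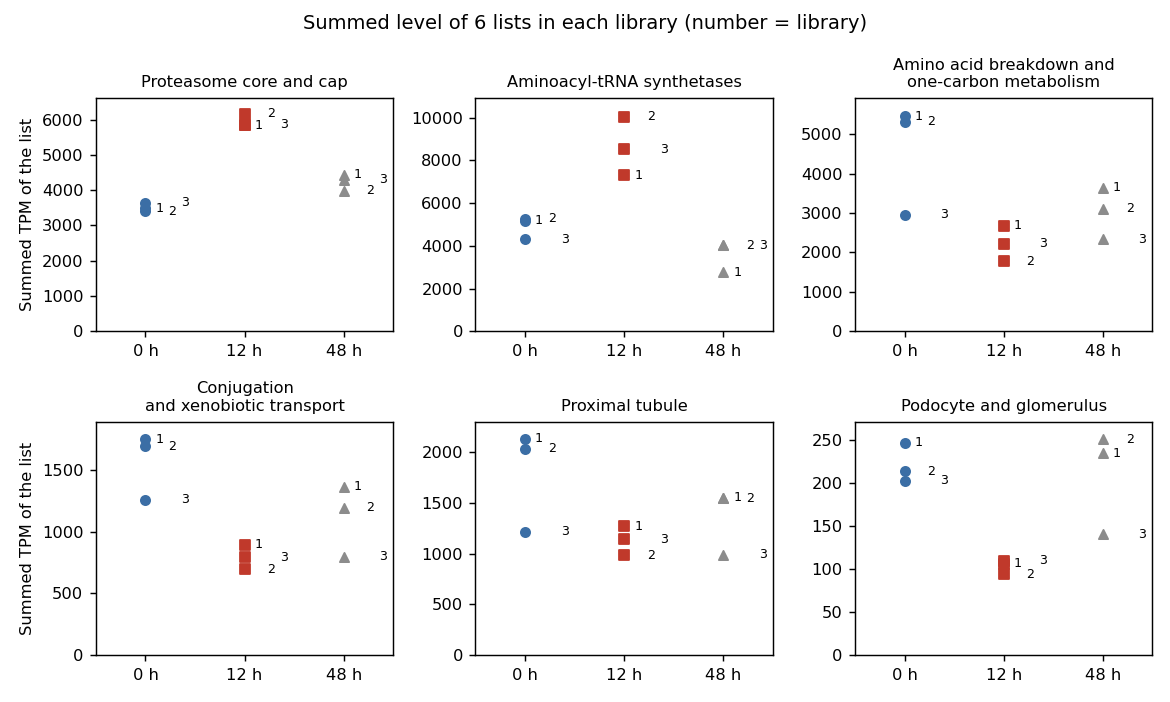
Summed TPM (y axis, from 0) of 6 lists in each library at 0 h, 12 h and 48 h (x axis), each point numbered by its library. The proteasome and aminoacyl-tRNA synthetase lists are higher at 12 h than in every control. Most of the synthetase sum is yars1, with 3818 of 5168 TPM in control library 1 and 8070 of 10040 TPM in 12 h library 2. The mean log2 level of the synthetase genes was 5.86 to 5.93 in the controls, 6.32 to 6.44 at 12 h and 5.97 to 6.07 at 48 h. The lists of amino acid breakdown, conjugation and podocytes are lower at 12 h than in every control, and the proximal tubule list at 12 h overlaps control library 3.

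Matrix genes were lower too. Of 65 genes of the extracellular matrix, 0 rose and 5 fell, with a median of -0.46. Nidogen-2 (nid2), which links laminin to collagen IV in basement membranes, stood at 20.3, 19.4 and 21.2 TPM in the controls and at 7.97, 8.77 and 7.47 TPM at 12 h (change -1.23, adjusted p 0.0101). The collagen VI chains col6a2 and col6a3 fell by 1.22 and 1.53, perlecan (hspg2), the heparan sulfate proteoglycan of basement membranes, by 1.16, and the collagen-binding protein sparc by 1.04. The col6a2 feature comes from the same assembly component as the tfpi2 feature, and whether reads were shared between them was not tested. The summed level of the list did not follow its calls, being between 2050 and 2121 TPM in the controls and between 2136 and 2537 TPM at 12 h. None of the 5 passed without 12 h library 3 or with the control pair averaged.

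Some genes of resident phagocytes, stored fat and growth arrest were also called. The mannose receptor mrc1, a surface marker of tissue macrophages, stood at 91.8, 89.6 and 93.0 TPM in the controls and at 47.7, 47.6 and 53.3 TPM at 12 h (change -0.87, adjusted p 0.0179), while galectin-3 (lgals3) rose by 0.70 (adjusted p 0.0446), with a summed change of 0.30 over the 3 features of its description that did not pass. The other 10 macrophage markers did not pass, and the list of 12 summed to between 1769 and 2073 TPM in the controls and to between 1446 and 1598 TPM at 12 h. Of 34 genes of fat synthesis and storage, with a median of -0.28, fatty acid synthase (fasn) and the fat-mobilising lipase pnpla2 fell by 0.92 and 0.81 (adjusted p 0.0406 and 0.0341). The cell cycle inhibitor cdkn1a stood at 13.1, 12.1 and 12.2 TPM and then at 24.8, 42.6 and 34.6 TPM (change 1.34, adjusted p 0.0177) and was the 1 called among 40 genes of the p53 and DNA damage list. In the lysosome list of 57, the membrane protein scarb2 fell by 1.12 (adjusted p 0.00954) and 1 feature of the proton pump subunit atp6v1a rose by 0.67 (adjusted p 0.0493), with a summed change of 0.56 over 2 features that did not pass (adjusted p 0.0598). None of these genes passed without 12 h library 3 or with the control pair averaged. The calls of lgals3, fasn and atp6v1a held in 0 of the 10 further fits.

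The most abundant called genes included the following. A receptor-transporting protein 4-like gene, related to an antiviral factor of mammals, stood at 171, 180 and 49.1 TPM in the controls and at 502, 3252 and 1895 TPM at 12 h, a change of 3.65 (adjusted p 0.0491) whose call held in 1 of the 10 further fits. GTPase IMAP family member 7 (gimap7), a GTPase of lymphocytes in mammals, stood at 148, 160 and 30.2 TPM in its controls and rose by 3.67 log2 units (adjusted p 0.0239), with its call held in 5. A bactericidal permeability-increasing protein-like gene (bpi), an antibacterial protein that binds lipopolysaccharide in mammals, stood at 561, 533 and 415 TPM in the controls and at 1007, 2478 and 1774 TPM at 12 h. Its change of 1.72 had an adjusted p of 0.0336, and its call held in 2 of the 10 further fits. The apolipoprotein apoeb stood at 662, 611 and 1318 TPM and then at 274, 206 and 225 TPM (change -1.79, adjusted p 0.0235), with its call held in 5 of the 10. The nicotinamide riboside kinase nmrk2, which makes the NAD precursor nicotinamide mononucleotide, stood at 760, 756 and 777 TPM and then at 500, 429 and 439 TPM (change -0.75, adjusted p 0.0241). A class II histocompatibility beta chain fell by 0.70, a CD59-like complement regulator by 0.92 and a cystatin-like protease inhibitor by 1.39. In each of these 8, as in every called feature, the groups did not overlap, and none passed without 12 h library 3 or with the control pair averaged.

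Interferon-stimulated genes were high already in part of the controls. The 25 measured summed to 8997, 9243 and 2502 TPM in control libraries 1, 2 and 3 and to 7225, 13140 and 10240 TPM at 12 h, so the groups overlapped. One member was called, ifi44l, at 138, 139 and 111 TPM and then at 780, 500 and 615 TPM (change 2.26, adjusted p 0.0313), and summed over the 11 features so described it did not pass (adjusted p 0.0886). The antiviral GTPase Mx1 stood at 1322, 1232 and 551 TPM in the controls, at 2066, 4279 and 3213 TPM at 12 h, and lower again at 146, 887 and 730 TPM at 48 h. Every 12 h library was above every control, and the change of 1.66 did not pass (adjusted p 0.234). The list's median was 0.60, and without control library 3, without 12 h library 3 or with the control pair averaged, 0 members passed.

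Lists of early and regulatory genes had 0 calls in limma's test at 12 h. Among 20 immediate early and stress transcription factors the median was 0.06, with 1 higher and 1 lower at an unadjusted p under 0.05. The stress factor atf3 stood at 42.3, 47.3 and 18.7 TPM in the controls and at 30.5, 111 and 68.0 TPM at 12 h, with overlapping groups, and myc at 15.3, 18.1 and 24.4 TPM and then at 38.7, 24.7 and 31.9 TPM (adjusted p 0.164). Among 25 genes of NF-kB signalling, the pathway that carries inflammatory signals to the nucleus, the median was 0.12 and 1 was higher unadjusted. The member with the smallest adjusted p was the co-activator bcl3, at 32.4, 33.7 and 15.5 TPM and then at 35.9, 74.1 and 55.0 TPM (adjusted p 0.209). Among 22 clock genes the median was -0.10, with 5 lower unadjusted and 3 called lower without control library 3. The clock repressor nr1d2, at 59.0, 56.9 and 34.9 TPM and then at 30.8, 24.6 and 26.6 TPM, did not pass (adjusted p 0.119). The 19 glucocorticoid-responsive genes had a median of -0.27 (1 higher and 5 lower unadjusted). The 63 genes of growth factor, Notch, Wnt and TGF-beta signalling had a median of -0.14 (3 and 7) and the 22 TRIM genes one of 0.09 (2 and 3). The 53 genes of the endoplasmic reticulum had a median of 0.20 (10 and 0), with uggt1, which checks glycoprotein folding, at 26.3, 24.1 and 25.3 TPM and then at 39.1, 41.2 and 38.6 TPM (adjusted p 0.0534). Of 42 genes of fatty acid oxidation the median was -0.33 (1 and 14), and of 30 of the tricarboxylic acid cycle it was -0.03 (2 and 3). Without control library 3, 1 and 2 genes of these last lists were called lower.

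Red cell and T cell markers differed widely among the controls. The 14 erythroid markers summed to 1748, 1810 and 7120 TPM in control libraries 1, 2 and 3 and to between 1046 and 1390 TPM at 12 h, with a median of -1.24 and 13 of 14 changes below 0. Of these, hbad, an alpha-D globin, fell by 2.16 and tal1, a transcription factor of blood progenitors, by 1.53 (adjusted p 0.0231 and 0.0253). With the control pair averaged neither passed (adjusted p 0.0620 and 0.0816), and without 12 h library 3 hbad did not (0.113). The far more abundant embryonic alpha globin stood at 10565, 11288 and 35554 TPM and then at 5967, 5661 and 5453 TPM, and its change did not pass (adjusted p 0.209). The T and NK cell list had 0 calls (1 higher unadjusted) and overlapping sums, between 93.5 and 526 TPM in the controls and between 158 and 262 TPM at 12 h. Without control library 3, its highest control, 2 members were called higher in limma's test. These were prf1 (change 1.74, adjusted p 0.00411) and a feature described as granzyme K-like (symbol gzmb, 1.87 and 0.0356). The B and plasma cell list had 0 calls (1 lower unadjusted) and a median of 0.15. The lists for endothelium, thrombocytes and interrenal tissue also had 0 calls in limma's test, with 1 higher and 2 lower, 0 and 1, and 0 and 1 unadjusted. Without control library 3, 1 endothelial marker was called higher, and 1 thrombocyte and 1 interrenal marker lower. Of 10 markers of muscle, liver and gut, 1 was called, the lipase cel, which fell by 1.45 log2 units (adjusted p 0.00954). Its call was lost without 12 h library 3 (adjusted p 0.0642) and with the control pair averaged (0.0533). The steroid-synthesis gene star, a marker of the interrenal cells that make cortisol in fish, was at 0.34 to 0.46 TPM in the controls and at 13.7, 0.47 and 6.89 TPM in 12 h libraries 1, 2 and 3. Its 48 h libraries stood at 0.48, 0.35 and 22.1 TPM, so that its level differed more between libraries of a group than between groups. The steroid-synthesis gene cyp11b stood at 0.41, 0.43 and 0.21 TPM in the controls and at 8.52, 2.68 and 4.96 TPM at 12 h. Its groups did not overlap, but its change of 2.14 did not pass in limma's test (adjusted p 0.121). Its sum over 3 features did not pass either (change 2.65, adjusted p 0.0645). A short cyp11a1 feature was at 0 TPM in the controls and at 6.10, 0 and 2.76 TPM at 12 h.

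Features with no protein match were called as well. One of 258 nucleotides, TRINITY_DN16696_c0_g1, stood at 523, 615 and 314 TPM in the controls and at 23.5, 34.5 and 40.9 TPM at 12 h. Its 48 h libraries stood at 394, 255 and 226 TPM. Its change of -3.82 had an adjusted p of 0.00143, and it passed in every further fit and with both steps together. A pair from the same assembly component rose. The more abundant of these, TRINITY_DN18440_c0_g6, stood at 1519, 1674 and 1381 TPM and then at 6776, 3371 and 4783 TPM, a change of 1.65 (adjusted p 0.0209), and TRINITY_DN18440_c0_g4 stood at 556, 558 and 378 TPM and then at 2561, 1418 and 1880 TPM, a change of 1.95 (adjusted p 0.0202). Both were highest in 12 h library 1, unlike bpi and Mx1, which were highest in 12 h library 2. The second unmatched feature that fell, TRINITY_DN20069_c0_g3, stood at 1371, 1284 and 537 TPM and then at 213, 280 and 238 TPM (change -2.01, adjusted p 0.0381). Apart from the 258-nucleotide feature, none of these passed without 12 h library 3 (adjusted p 0.0974 to 0.144) or with the control pair averaged (0.0764 to 0.143).

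Of the 41 features that passed in every fit, the 48 h mean was within the range of the controls for 7 of the 22 higher and 6 of the 19 lower ones. It was outside that range but nearer the controls for 10 and 6, and beyond the controls on the side away from 12 h for 4 and 3. It was nearer the 12 h mean for 1 higher feature, rps15, and for 4 lower ones. Nearness was taken on linear TPM, and on the log2 scale of the fold changes some features change side. Septin-1, with means of 1.17, 524 and 116 TPM at 0 h, 12 h and 48 h, was counted as nearer the controls. On the log2 scale it is nearer 12 h. The reverse holds for tfpi2, with means of 72.5, 16.1 and 43.5 TPM, counted as nearer 12 h. The 48 h libraries were set against the same controls, so these positions are a description.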

How the data were processed

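RNA of whole kidney was sequenced, and the authors deposited 1 table of 46444 features from a Trinity-type assembly with 9 value columns. The unit was taken as TPM: columns total 993873 to 996068, the header names no unit, and the tools are not given in the sources used here. Every deposited feature exceeds 2 TPM in some library. No read counts or genome were used here. Log2(TPM + 1) values of 45473 features were fitted with limma 3.58.1 in R 4.3.3 (eBayes with trend and robust, 1 coefficient a group, all 9 libraries). Fold changes on this scale understate low genes. Names come from the deposited protein match where it is to a fish. Symbols come from the table's Swiss-Prot name, and the most abundant feature stands for a symbol, so a symbol can stand for a paralogue.

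Members and lists were chosen with earlier results of these data known. Named are: informative called features that passed in all 10 further fits, the 12 called each way with the smallest adjusted p, the 6 most abundant called each way, the 5 largest gains and losses in TPM, each list's best members by adjusted p, 4 at the most, and up to 2 unmatched called features each way. Genes outside the rule (hal, hgd, prodh2, slc39a14, slc46a2, sparc, psmb6, psmd10 and atf3) were chosen after their values were seen. Alternatives were other filters, a pseudocount of 0.1, quantile normalization, no trend, fewer libraries, a replicate block and sums by description. Averaging controls 1 and 2 together with leaving out 12 h library 3 was chosen after seeing the data. One result named by the rule is not reported here.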

Additional observations from a re-analysis of the deposited data

How the results depend on the processing

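The counts of higher and lower features (269 and 378) depended on the fit: 29 and 32 at an adjusted p under 0.01, 29 and 31 with control libraries 1 and 2 averaged, 4 and 2 when 12 h library 3 was dropped too, 100 and 130 without the trend and 97 and 138 with only the compared groups. Over the fits that left out 1 library they ran from 22 to 324 higher and from 27 to 556 lower, the largest without control library 3. A filter of 5 TPM (318 and 447), no filter (260 and 364), a pseudocount of 0.1 (190 and 336), quantile normalization (257 and 285), fish matches only (368 and 551), sums by description (223 and 312) and a further demand of 1 log2 unit either way (198 and 347) kept them within 1.5 times. Of 83 called features named by the rule, 54 lost their call without 12 h library 3, 54 with the control pair averaged and 13 without control library 3. When features were summed by description, slc2a1 changed to 0.15 and rps15 to -0.04, and no other called feature among those named by the rule turned its direction under the alternatives run. The causes were not tested. With the replicate number as a block the counts were 107 and 177. Whether the numbers pair the libraries was not settled. Deviations from the group means of libraries with the same number correlated at -0.222, 0.239 and -0.092. They cannot decide this, because control libraries 1 and 2 nearly coincide and 12 h library 3 lies between its fellows. At this depth 1 read was worth 0.59 to 0.78 TPM on 250 nucleotides, so changes among features of a few TPM rest on few reads.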
